A study of Bos indicus with 9 samples.

Results

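The genes described here are 60 cell cycle and DNA replication genes, listed by name, and the question put to them was how their signals in the corpus luteum compared between cows given equine chorionic gonadotropin (eCG) and untreated cows. A listed gene counted as measured where the probe table paired at least 1 probe set with its symbol and no other, and the probe set with the highest mean over the 9 arrays stood for it. By this rule 48 of the 60 genes were measured, out of 9123 genes with 1 symbol on the array. They comprise 8 of 9 listed G1 genes (the D and E cyclins, their kinases and the transcription factor E2F1), 15 of 18 replication genes, 22 of 29 mitosis genes and 3 of 4 cyclin-dependent kinase inhibitors. The other 12 genes are CDK6, MCM2, GINS1, GINS2, FOXM1, PTTG1, KIF11, PRC1, CENPE, TOP2A, MKI67 and CDKN1B, which were not analysed here. PTTG1 lay on a probe set shared with another gene.

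The cows were Nelore crossbred (Bos indicus), between 2 and 5 years old, and estradiol benzoate with a progesterone device synchronised the cycle of all. The superovulated group of 3 cows was given 2000 IU of eCG on day 4 of that protocol, the stimulated group of 3 was given 400 IU on day 8, and the control group of 3 had no eCG. eCG is a placental hormone of the mare that acts on follicle-stimulating and luteinising hormone receptors in cattle and drives follicle growth. Corpora lutea were taken at slaughter on day 6 after ovulation, and the RNA of each biological replicate was hybridised to 1 Affymetrix bovine array. Dose and day of eCG changed together, so the treated groups cannot be told apart by dose alone, and the labels do not say how many corpora lutea of a cow made up a sample.

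The cell cycle runs from a G1 phase, in which D and E cyclins with their kinases release E2F transcription factors, through the copying of DNA by the replication machinery to mitosis, which is driven by CDK1 with the B cyclins. Replication genes are typically induced ahead of mitotic genes, and inhibitors of the CDKN families hold the kinases in check. The corpus luteum forms from the ruptured follicle after ovulation and grows quickly in its first days, when endothelial and other stromal cells divide while the large steroid-producing cells have mostly stopped dividing. In RNA from whole tissue, fewer cells of a type and less RNA per cell cannot be told apart.

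Values are log2 signals per probe set, recovered from a deposited table in which every number had lost its decimal mark. The 9 arrays were alike as a whole, with medians between 4.18 and 4.24 and with correlations over all probe sets between 0.987 and 0.994 within groups and between 0.986 and 0.994 across groups. The steroidogenic markers STAR, CYP11A1, HSD3B1, LHCGR, FDX1, SCARB1 and OXT, which define luteal tissue, averaged between 12.97 and 13.28 on every array. The averages were lowest in superovulated 2 (13.04) and control 2 (12.97). LHCGR, the luteinising hormone receptor, was the dimmest of the 7 probe sets, with signals between 5.44 in control 2 and 7.07 in control 1. Because probe sets differ in how well they bind, a higher signal of one gene than of another says nothing of their expression, and only differences of 1 probe set between arrays are compared. The 48 genes gave values between 2.49 and 12.26, and 1 of them, CENPA, a centromeric histone, had a mean among the dimmest 25% of probe sets.

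No cell cycle gene passed the test in any comparison, and many of these genes differed widely between cows of the same group. With limma and Benjamini-Hochberg adjustment over 23949 probe sets at a threshold of 0.05, 0 of 48 members passed for superovulated against stimulated cows (background 0.011% of 9123 genes), 0 of 48 for superovulated against control cows (background 0%) and 0 of 48 for stimulated against control cows (background 0.011%). Without adjustment, 0, 1 and 1 members had a p under 0.05 in these comparisons, and the 1 member was CDKN2C, lower in both treated groups. The matching background shares of genes lower without adjustment were 4.18%, 2.15% and 3.07%, and those of genes higher were 4.88%, 3.12% and 4.2%. With the replicate number of the labels as a block, CCNE2 was higher without adjustment in superovulated than in stimulated cows (background 6.24%). In that fit CDKN2C and CCND3 were lower in superovulated than in control cows (background 3.05%), CDKN2C, CCNE1 and CCNE2 were lower in stimulated than in control cows (background 4.12%), and 0 passed after adjustment. Groups did not overlap for CDKN1A, higher in superovulated than in stimulated cows, for CDKN2C, lower in superovulated than in control cows, and for BUB1B and CDKN2C, lower in stimulated than in control cows. The background shares of genes with no overlap in these directions were 7.12%, 4.08% and 6.34%.

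The sign of the fold changes was uneven although no gene passed. For superovulated against stimulated cows 36 of 48 members had a positive log2 fold change, with a median of 0.15 against 0.01 over all genes, of which 53.2% were positive. For superovulated against control cows 40 of 48 were negative, with a median of -0.28 against 0.01 over all genes, of which 46.8% were negative. In stimulated against control cows 44 of 48 were negative, with a median of -0.43 against -0.003 over all genes, of which 50.8% were negative. The last pair of comparisons share the 3 control arrays, and the signs of genes that vary together are not independent. Mitosis genes had the lowest medians of the role classes, at -0.54 for superovulated against control cows and -0.78 for stimulated against control cows. Replication genes had medians of -0.09 and -0.19 in these comparisons, G1 genes 0.01 and -0.33, and inhibitors -0.52 and -0.02. Between superovulated and stimulated cows the class medians were 0.22 for mitosis, 0.09 for replication, 0.16 for G1 genes and 0.13 for inhibitors.

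**Figure D1:**
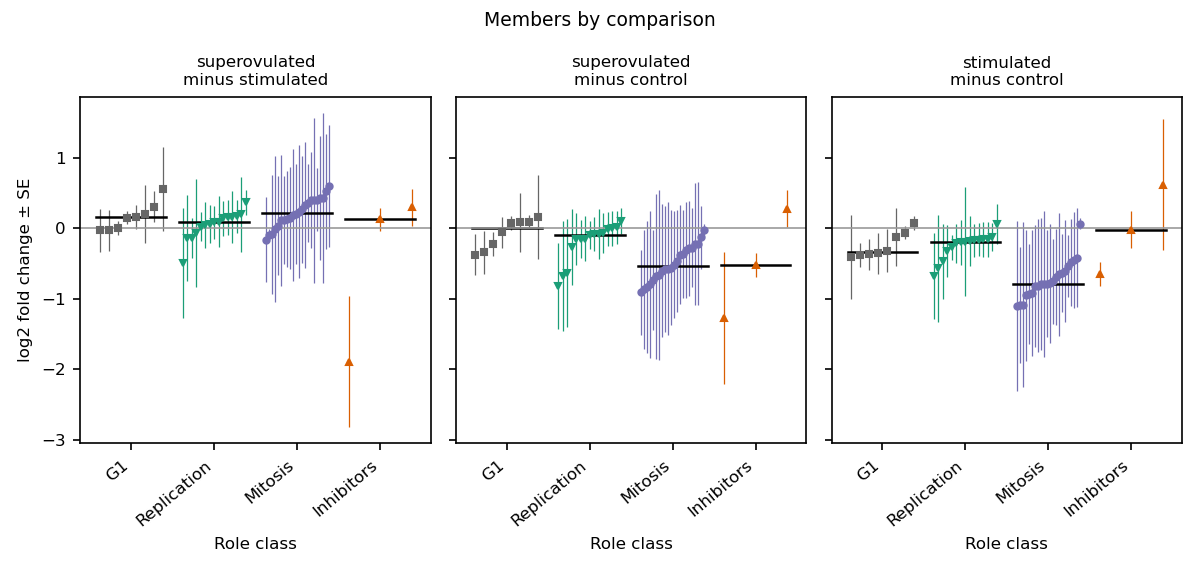
Log2 fold change of each measured cell cycle gene (points, with the standard error of the limma fit as bars) for superovulated minus stimulated, superovulated minus control and stimulated minus control cows, by role class, with class medians as black lines. All 22 mitosis genes lie below 0 for superovulated minus control and 21 of 22 for stimulated minus control. Standard errors are about as large as the changes for stimulated minus control and mostly larger than them for superovulated minus control.

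The extremes of these genes lay on a few arrays. Superovulated 3 gave the lowest of the 9 values for 37 of 48 members, which held for 11.9% of all genes, while control 2 gave the highest value for 31 of 48 members, or 64.6%, against 9.69% of all genes. Superovulated 2 was highest for 9 members, or 18.8%, against 15.6% of all genes, which is close to that background. Superovulated 2 and control 2 together formed the top pair, with superovulated 3 at the bottom, for 33 of 48 members, against 2.47% of all genes and 1.65% of the 8970 genes in no cell cycle list. By class this order held for 20 of 22 mitosis genes, 12 of 15 replication genes, 1 of 8 G1 genes and 0 of 3 inhibitors. The 3 arrays with the most extreme values thus came from the superovulated and control groups, with a high and a low array within the superovulated group itself.

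With superovulated 3 left out, the median over the members was 0.24 for superovulated against control cows, with 40 of 48 positive against 8 of 48 in the full data. In the same setting the median for superovulated against stimulated cows was 0.61, with 46 of 48 positive and 10 higher without adjustment, where 5.54% of all genes were higher. Without superovulated 2 the median was -0.60 for superovulated against control and -0.15 for superovulated against stimulated cows, so the second of these changed sign. Without control 2 the median for superovulated against control cows was 0.07, with 29 positive, and that for stimulated against control cows was -0.13, with 34 negative. With superovulated 2, superovulated 3 and control 2 all left out, a setting chosen after the data were seen, the medians were 0.43 for superovulated against stimulated, 0.34 for superovulated against control and -0.13 for stimulated against control cows. In that setting the only superovulated array left was superovulated 1, whose spread the fit takes from the other groups, and 0 members passed after adjustment. The background shares of genes higher without adjustment in superovulated cows were then 3.89% against stimulated and 3.5% against control cows. Members cannot be weighed against these shares, and no conclusion is drawn from their counts. The 3 arrays left out were the most extreme for these same genes, which narrows the spread that the fit uses. The superovulated side also rests on 1 array, and genes that vary together are not independent. The 10 members counted without superovulated 3 likewise came from leaving out an extreme array, the lowest for 37 of 48.

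**Figure D2:**
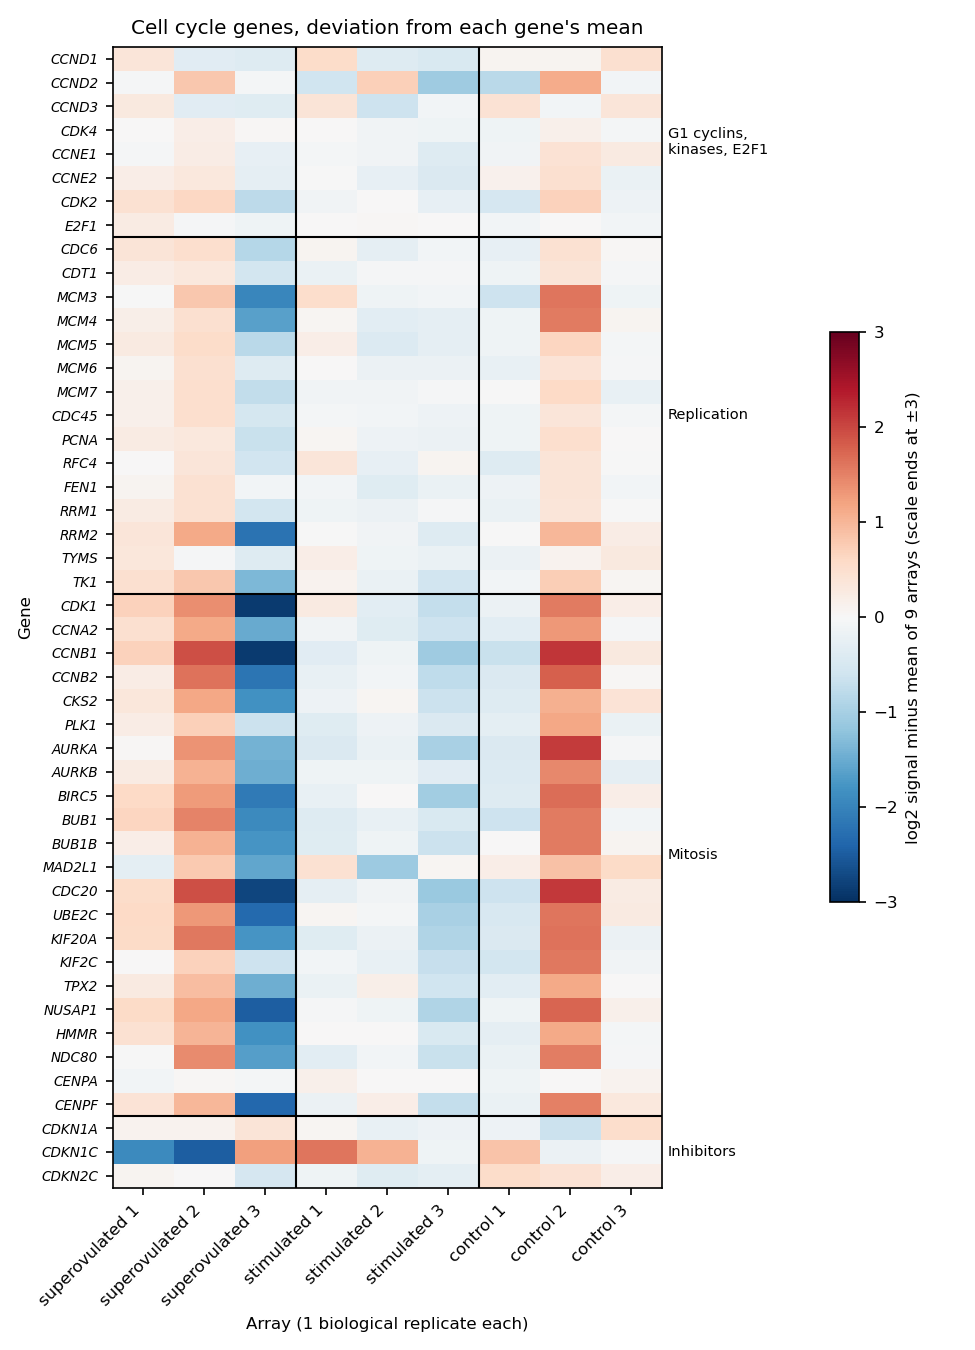
Deviation of the log2 signal from each gene's mean over 9 arrays for the 48 measured cell cycle genes (rows, by role class) on each array (columns, superovulated, stimulated, control). Red marks values above the gene's mean and blue below; superovulated 2 and control 2 are red and superovulated 3 is blue through most of the replication and mitosis rows.

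The spread of the cell cycle genes was wide for this tissue. The range over the 9 arrays had a median of 2.23 over the members and 0.57 over all genes, and exceeded 2 for 26 of 48 members, or 54.2%, against 6.05% of all genes. Mitosis genes had a median range of 3.37, replication genes 1.15 and G1 genes 0.96. Differences between the group means accounted for a median of 10.5% of a member's variation, against 24.6% over all genes. The group that spread most was the superovulated one. Among mitosis genes the median range within a group was 3.04 in superovulated, 0.71 in stimulated and 1.79 in control cows, and among replication genes 1.02, 0.36 and 0.69 in the same order of groups. All genes together had median ranges of 0.31, 0.28 and 0.26. The superovulated range was the widest of the 3 for 38 of 48 members (41.6% of all genes), and the stimulated range was the narrowest for 42 of 48 (35.0% of all genes). With 3 cows a group these ranges were not tested, and the genes that share an extreme array are not independent.

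Taken array by array, the median deviation of the mitosis genes from their means was 0.38, 1.17 and -1.79 in superovulated 1, 2 and 3. It was -0.19, -0.12 and -0.67 in stimulated 1, 2 and 3, and -0.34, 1.55 and 0.06 in control 1, 2 and 3. All 3 stimulated arrays lay below 0 and inside the span of the superovulated arrays. Replication genes had the same high and low arrays on a smaller scale, with median deviations of 0.23, 0.48 and -0.66 in superovulated, 0.05, -0.17 and -0.17 in stimulated and -0.14, 0.46 and -0.01 in control cows. The mitosis median minus the replication median was 0.16, 0.68 and -1.13 in superovulated, -0.24, 0.04 and -0.50 in stimulated and -0.20, 1.10 and 0.07 in control cows. Mitosis genes therefore stood further from their means than replication genes on the high arrays as well as on the low one, and no group had all 3 arrays on one side of 0 for this difference.

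**Figure D3:**
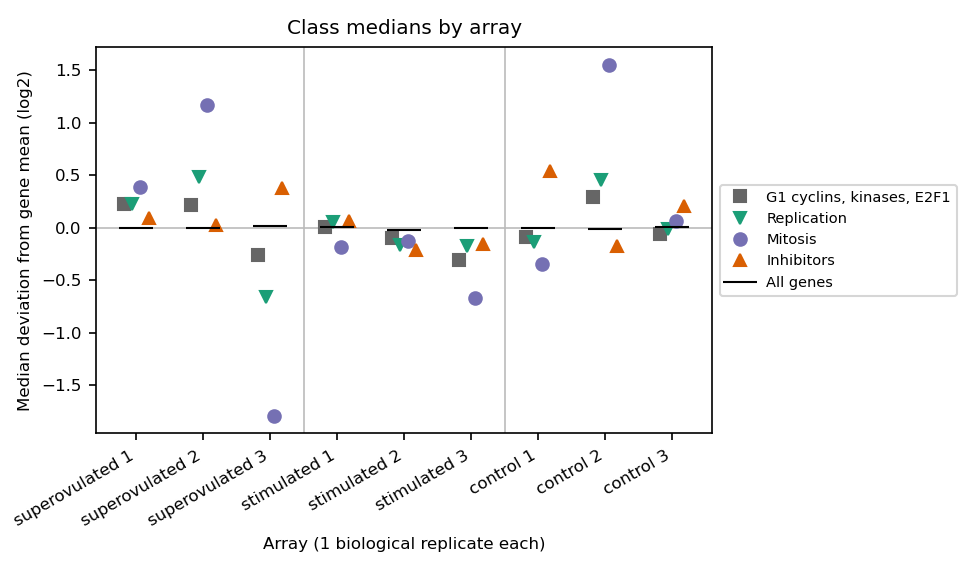
Median deviation of the log2 signal from the gene mean, by role class (markers) and for all genes (black lines), on each of the 9 arrays. Mitosis genes run between -1.79 in superovulated 3 and 1.55 in control 2, replication genes between -0.66 and 0.48, and all genes stay near 0.

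Among the mitosis genes CCNB1, cyclin B1, the activating partner of CDK1 at entry into mitosis, had the widest range, 5.00. Its log2 signals were 8.76, 10.02 and 5.21 in superovulated cows, 7.73, 7.95 and 7.01 in stimulated cows and 7.41, 10.21 and 8.36 in control cows. The superovulated values covered almost the whole span of the data, and the groups overlapped. The log2 fold change was 0.43 ± 1.21 (SE) for superovulated against stimulated, -0.66 ± 1.21 for superovulated against control and -1.10 ± 1.21 for stimulated against control cows, with adjusted p of 0.933, 0.954 and 0.910 by limma.

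CDC20, which activates the anaphase-promoting complex, had signals of 7.03, 8.43 and 3.73 in superovulated cows, 6.22, 6.39 and 5.38 in stimulated cows and 5.87, 8.62 and 6.74 in control cows. Superovulated 3 was the lowest array, superovulated 2 and control 2 the highest, and the groups overlapped. The fold change for superovulated against control cows was -0.68 ± 1.18 (SE; limma adjusted p = 0.951). CDK1, the kinase that cyclin B1 activates, had signals of 9.60, 10.29 and 6.03 in superovulated cows, 9.18, 8.58 and 8.19 in stimulated cows and 8.74, 10.46 and 9.12 in control cows. Its mean was nearly the same in superovulated cows, 8.64 ± 2.29 (SD, n = 3), as in stimulated cows, 8.65 ± 0.50 (SD, n = 3). In control cows the mean was 9.44 ± 0.91 (SD, n = 3). Equal means thus stood over a superovulated group that held both a high and a low array.

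AURKA, a kinase of the spindle poles, had signals of 6.02, 7.33 and 4.57 in superovulated cows, 5.56, 5.77 and 5.00 in stimulated cows and 5.54, 8.09 and 5.96 in control cows. Superovulated 2 and control 2 stood above all other arrays, and the groups overlapped. The log2 fold change for stimulated against control cows was -1.08 ± 0.82 (SE; limma adjusted p = 0.884). BUB1B, a kinase of the spindle checkpoint, had signals of 7.08, 7.92 and 5.10 in superovulated cows, 6.51, 6.75 and 6.23 in stimulated cows and 6.89, 8.43 and 6.97 in control cows. All stimulated values lay below all control values, with a gap of 0.14 between the closest pair, and the fold change was -0.93 ± 0.71 (SE; limma adjusted p = 0.884). MAD2L1, another part of the spindle checkpoint, had signals of 9.19, 10.27 and 7.94 in superovulated cows, 9.94, 8.39 and 9.55 in stimulated cows and 9.68, 10.37 and 10.08 in control cows. Stimulated 2 stood apart from the other stimulated arrays and was lowest but for superovulated 3. Its fold changes were -0.91 ± 0.61 for superovulated against control (SE; limma adjusted p = 0.856) and -0.75 ± 0.61 for stimulated against control cows (SE; limma adjusted p = 0.885).

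The other 16 mitosis genes had fold changes of the same small size relative to their errors. The cyclins CCNA2 and CCNB2 had 9-array ranges of 2.81 and 3.97. The kinases AURKB, PLK1 and BUB1, of the chromosomal passenger complex, mitotic entry and the spindle checkpoint, had ranges of 2.89, 1.80 and 3.48. BIRC5, survivin, a partner of AURKB, had signals of 8.59, 9.28 and 5.87 in superovulated cows, 7.77, 8.01 and 6.94 in stimulated cows and 7.61, 9.67 and 8.20 in control cows, once more with superovulated 3 lowest and control 2 highest. UBE2C, the ubiquitin-conjugating enzyme of the anaphase-promoting complex, had a range of 3.92, and CKS2, a small subunit of the cyclin-dependent kinases, one of 2.99. Among spindle and kinetochore genes the ranges were 3.41 for KIF20A, 2.26 for KIF2C, 2.60 for TPX2, 4.22 for NUSAP1, 2.94 for HMMR, 3.20 for NDC80 and 3.86 for CENPF. CENPA, the dim one, had a range of 0.29. CENPA and KIF2C were the mitosis genes without the common array order, and KIF2C was lowest in stimulated 3. Of 11 further probe sets for mitosis genes, 6 were highest in control 2 or superovulated 2 and lowest in superovulated 3, among them those of AURKA, AURKB, KIF20A and TPX2 with ranges of 3.09, 2.83, 2.67 and 3.39. The further probe sets of BUB1, CENPF and HMMR were dimmer and varied less than the ones that stood for these genes, with ranges of 0.76 for BUB1, 0.66 for CENPF and between 0.15 and 1.45 for the 4 of HMMR.

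**Figure D4:**
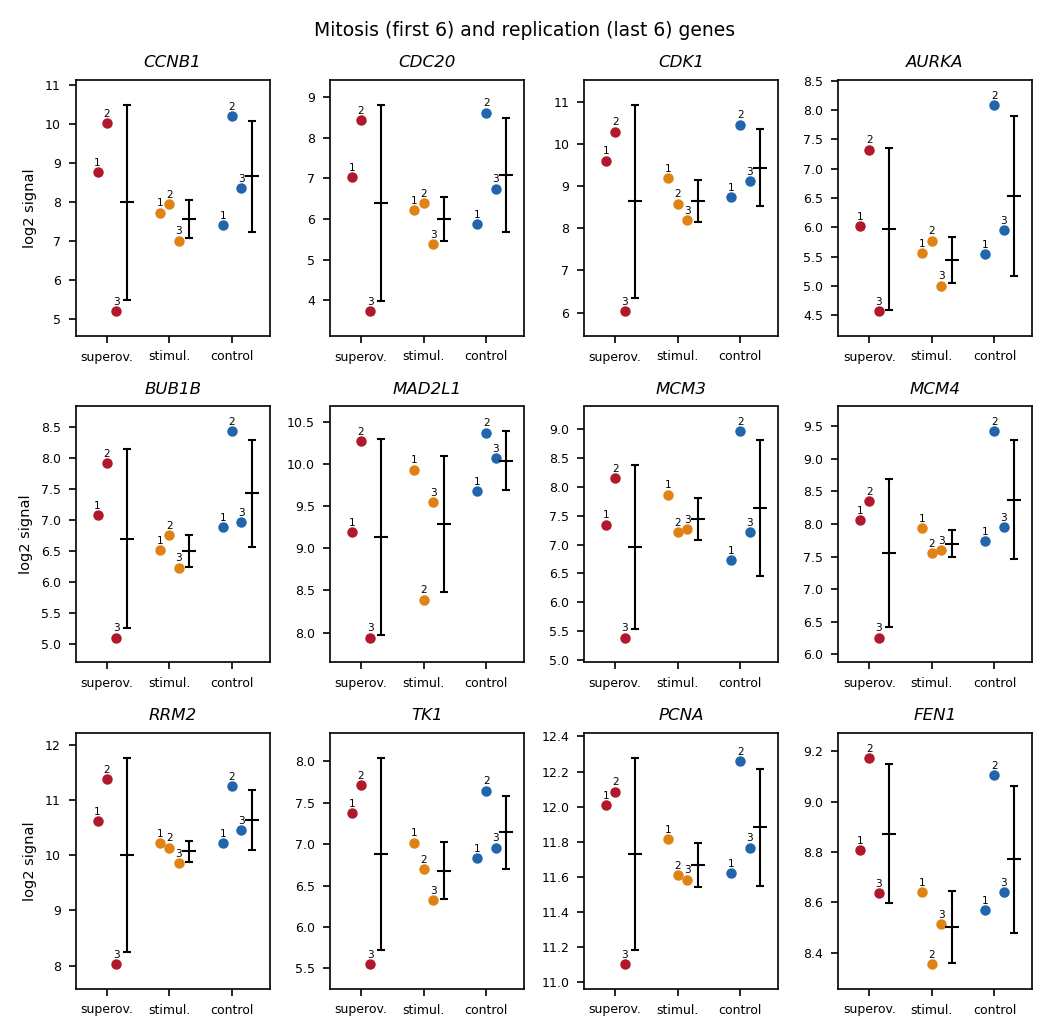
Log2 signal of 6 mitosis genes (CCNB1, CDC20, CDK1, AURKA, BUB1B, MAD2L1) and 6 replication genes (MCM3, MCM4, RRM2, TK1, PCNA, FEN1) in superovulated, stimulated and control cows. Points are arrays with their replicate number, and the bar gives mean ± SD (n = 3). Vertical scales differ between genes; superovulated 3 is the lowest point for all but FEN1, and the stimulated points lie closest together for all but MAD2L1.

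Among the replication genes RRM2, the regulated subunit of ribonucleotide reductase, which makes deoxynucleotides, had one of the widest ranges. Its log2 signals were 10.61, 11.38 and 8.03 in superovulated cows, 10.22, 10.14 and 9.86 in stimulated cows and 10.22, 11.25 and 10.45 in control cows. Superovulated 3 alone lay far down, and the other 8 arrays lay between 9.86 and 11.38. The fold change for superovulated against control cows was -0.63 ± 0.77 (SE; limma adjusted p = 0.923). Its partner RRM1, the large subunit, varied less, with fold changes of 0.16 ± 0.25 for superovulated against stimulated and -0.15 ± 0.25 for stimulated against control cows (SE).

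The MCM2-7 helicase unwinds DNA at the fork, and 5 of its 6 subunits were measured. MCM3 had signals of 7.35, 8.15 and 5.39 in superovulated cows, 7.87, 7.21 and 7.27 in stimulated cows and 6.74, 8.97 and 7.21 in control cows. MCM4 had signals of 8.06, 8.35 and 6.26 in superovulated cows, 7.93, 7.56 and 7.60 in stimulated cows and 7.74, 9.42 and 7.95 in control cows. In both genes control 2 was highest and superovulated 3 lowest, and all groups overlapped. Their log2 fold changes for superovulated against control cows were -0.68 ± 0.78 and -0.82 ± 0.61 (SE; limma adjusted p = 0.916 and 0.869). MCM5, MCM6 and MCM7 had narrower ranges of 1.45, 0.86 and 1.34 and fold changes between -0.31 and 0.18 over the 3 comparisons. A further probe set of MCM3, with a mean of 2.44, was among the dimmest 25% of probe sets and is no check on the one above.

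TK1, thymidine kinase, had signals of 7.37, 7.72 and 5.55 in superovulated cows, 7.02, 6.70 and 6.33 in stimulated cows and 6.83, 7.65 and 6.96 in control cows, again with the lowest and the highest value within the superovulated group. Its fold changes were 0.20 ± 0.54 for superovulated against stimulated and -0.27 ± 0.54 for superovulated against control cows (SE). PCNA, the sliding clamp of the DNA polymerases, had signals of 12.01, 12.09 and 11.10 in superovulated cows, 11.82, 11.61 and 11.59 in stimulated cows and 11.62, 12.26 and 11.77 in control cows. The decimal mark of PCNA was set by its spread between arrays, as was that of MCM6, CDK4 and CCND3. PCNA kept the common order in a range of 1.15, with a fold change of -0.15 ± 0.27 for superovulated against control and -0.21 ± 0.27 for stimulated against control cows (SE; limma adjusted p = 0.954 and 0.924).

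FEN1, a nuclease that trims Okazaki fragments, differed from the rest in that superovulated 3 was not the lowest array. Its signals were 8.81, 9.17 and 8.64 in superovulated cows, 8.64, 8.35 and 8.51 in stimulated cows and 8.57, 9.11 and 8.64 in control cows. The lowest superovulated and the highest stimulated value met at 8.64, and the fold change between these groups was 0.37 ± 0.18 (SE; limma adjusted p = 0.571). The licensing factors CDC6 and CDT1, the helicase partner CDC45, the clamp loader RFC4 and the thymidylate synthase TYMS had ranges of 1.37, 0.94, 1.02, 0.96 and 0.72. Their fold changes over the 3 comparisons lay between -0.17 and 0.14. In all 15 replication genes the superovulated arrays had the widest and the stimulated arrays the narrowest range of the 3 groups.

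The G1 genes varied less, and only 1 of 8 had the full array order of the replication and mitosis genes. Control 2 and superovulated 2 were still the top pair for 4 of 8, against 6.36% of all genes. Superovulated 3 was the lowest array for 2 of 8, against 11.9% of all genes. Stimulated 3 was the lowest for 5 of 8, against 11.2% of all genes, so the low array of most G1 genes was another one. These were CCND1, CCND2, CCNE1, CCNE2 and CDK4. CCND2, cyclin D2, had the widest range among them, 2.20, with signals of 8.38, 9.23 and 8.36 in superovulated cows, 7.81, 9.12 and 7.34 in stimulated cows and 7.60, 9.54 and 8.34 in control cows. In each group array 2 was the highest, and stimulated 3 was the lowest of all 9. The fold change was 0.57 ± 0.60 for superovulated against stimulated and 0.16 ± 0.60 for superovulated against control cows (SE; limma adjusted p = 0.794 and 0.981). The cyclins CCND1 and CCND3 had fold changes of -0.34 ± 0.31 and -0.37 ± 0.29 for superovulated against control and of -0.32 ± 0.31 and -0.35 ± 0.29 for stimulated against control cows (SE). Both lay within their spread.

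CCNE1, cyclin E1, which with CDK2 starts DNA synthesis, had signals of 5.01, 5.27 and 4.81 in superovulated cows, 4.98, 4.95 and 4.67 in stimulated cows and 4.95, 5.48 and 5.31 in control cows. Its fold change for stimulated against control cows was -0.38 ± 0.17 (SE; limma adjusted p = 0.783), and control 1 lay among the stimulated arrays. CCNE2 had signals of 8.19, 8.31 and 7.71 in superovulated cows, 7.99, 7.75 and 7.55 in stimulated cows and 8.12, 8.48 and 7.78 in control cows, with a fold change of -0.37 ± 0.22 for stimulated against control cows (SE; limma adjusted p = 0.856). CDK2, their kinase, was the 1 G1 gene with the order of the mitosis genes. Its signals were 5.21, 5.38 and 3.97 in superovulated cows, 4.65, 4.77 and 4.51 in stimulated cows and 4.24, 5.45 and 4.61 in control cows, and its fold changes stayed between -0.12 and 0.21.

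CDK4, the kinase of the D cyclins, was among the steadiest members, with a range of 0.33, and 21.6% of all genes had a narrower one. It had signals of 10.44, 10.62 and 10.45 in superovulated cows, 10.44, 10.32 and 10.29 in stimulated cows and 10.29, 10.57 and 10.37 in control cows. The lowest superovulated and the highest stimulated value met at 10.44, with a fold change of 0.15 ± 0.09 (SE; limma adjusted p = 0.641). E2F1, the transcription factor that CDK4 and CDK2 release, had a range of 0.38 and averaged 3.11 ± 0.20 in superovulated, 3.11 ± 0.02 in stimulated and 3.03 ± 0.06 in control cows (SD, n = 3 each).

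The 3 measured inhibitors each had their own pattern. CDKN2C, p18, an inhibitor of CDK4 and CDK6, had signals of 9.19, 9.12 and 8.59 in superovulated cows, 8.98, 8.74 and 8.81 in stimulated cows and 9.64, 9.53 and 9.30 in control cows. Every treated value lay below every control value, and the gap between the closest pair, superovulated 1 and control 3, was 0.11. Group differences accounted for 69.9% of its variation, the most of any member. The fold changes were -0.52 ± 0.17 for superovulated against control and -0.65 ± 0.17 for stimulated against control cows (SE), and neither passed, with limma adjusted p of 0.795 and 0.569. Both comparisons use the same control arrays. Without superovulated 3 the value for superovulated against control cows was -0.33.

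CDKN1C, p57, an inhibitor that is typical of cells that have left the cycle, had signals of 8.60, 8.03 and 11.74 in superovulated cows, 12.13, 11.55 and 10.38 in stimulated cows and 11.38, 10.33 and 10.48 in control cows. Superovulated 1 and 2 were the lowest of all 9 arrays, while superovulated 3 was the second highest, which is the reverse of the order of the mitosis genes within this group. The log2 fold change was -1.89 ± 0.93 for superovulated against stimulated and -1.27 ± 0.93 for superovulated against control cows (SE; limma adjusted p = 0.571 and 0.865). Without superovulated 3 these were -3.03 and -2.41, with limma adjusted p of 0.288 and 0.621. Without superovulated 2 they were -1.18 and -0.56, and without superovulated 1 they were -1.47 and -0.84, so the size rested on which superovulated arrays were counted. Of the other CDKN1C probe sets, a dim one with a mean of 3.15 and a range of 0.67 was likewise lowest in superovulated 1 and 2 and highest in superovulated 3. The remaining one, with a mean of 4.56 and a range of 0.39, was highest in superovulated 1 and so did not share that order. The mean over all probe sets of the gene gave -0.68 for superovulated against stimulated cows.

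CDKN1A, p21, an inhibitor induced by p53, had signals of 8.03, 8.02 and 8.31 in superovulated cows, 7.99, 7.71 and 7.77 in stimulated cows and 7.79, 7.28 and 8.46 in control cows. Superovulated values lay above all stimulated ones, by 0.03 for the closest pair, and the control values spanned both groups. The fold change was 0.30 ± 0.27 for superovulated against stimulated and 0.28 ± 0.27 for superovulated against control cows (SE; limma adjusted p = 0.755 and 0.897). Within the controls the lowest CDKN1A value was in control 2, the array on which the mitosis genes were highest.

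**Figure D5:**
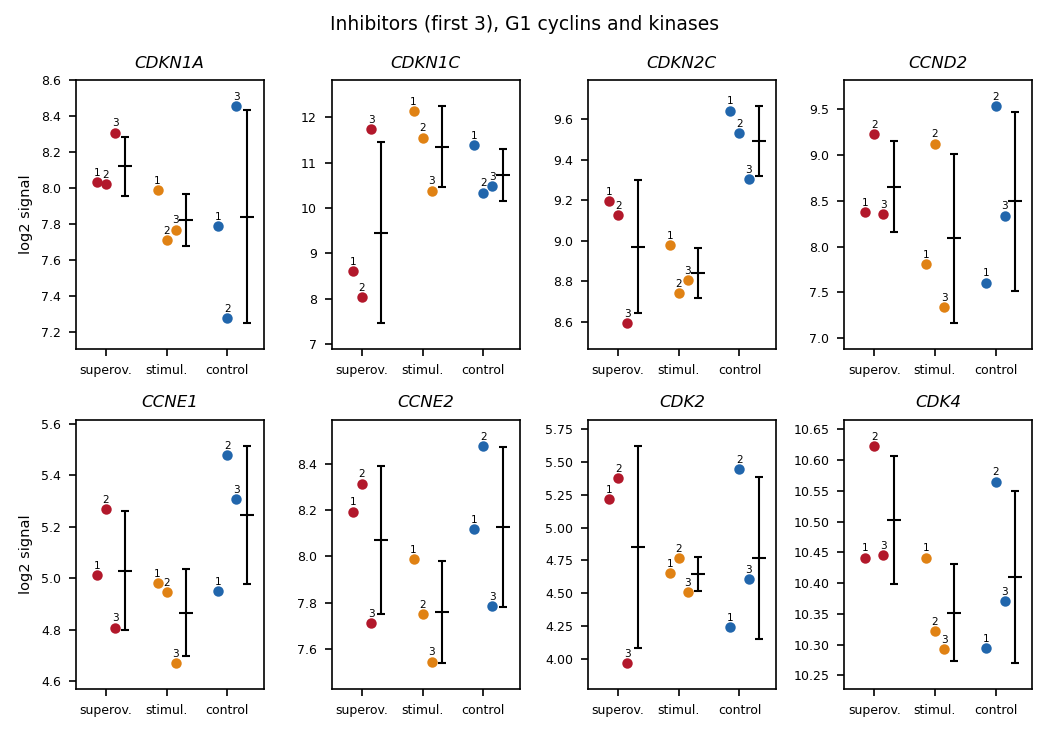
Log2 signal of the inhibitors CDKN1A, CDKN1C and CDKN2C and of the G1 genes CCND2, CCNE1, CCNE2, CDK2 and CDK4 in superovulated, stimulated and control cows. Points are arrays with their replicate number, and the bar gives mean ± SD (n = 3); vertical scales differ between genes. All treated CDKN2C points lie below the control points, and CDKN1C is low in superovulated 1 and 2.

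Further cell cycle genes outside the 60 were read from 3 lists by textbook role. Of 67 other mitosis genes 44 were measured, and 0 passed in any comparison, with medians of 0.20 for superovulated against stimulated, -0.30 for superovulated against control and -0.45 for stimulated against control cows. Superovulated 2 and control 2 on top with superovulated 3 at the bottom held for 31 of these 44, or 70.5%, against 2.47% of all genes. Stimulated and control cows did not overlap, with lower values in stimulated cows, for 7 of these 44 genes, against the 6.34% of all genes given above. The 3 with the smallest p were ZWILCH, a kinetochore protein, KIF22, a chromosome-bound kinesin, and LMNB1, a lamin of the nuclear envelope. For stimulated against control cows their fold changes were -0.28 ± 0.12, -0.69 ± 0.33 and -0.75 ± 0.45 (SE; limma adjusted p = 0.779, 0.787 and 0.850).

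Of 42 other replication genes 34 were measured, again with 0 past the adjusted threshold. The array order held for 8, or 23.5%, against 2.47% of all genes. GINS4, LIG1 and POLD2 are named because they had the smallest p of this list in any comparison. Their differences were thus selected on these data and carry no separate weight. GINS4, a part of the replicative helicase, had signals of 4.81, 5.37 and 5.44 in superovulated cows, 4.19, 4.33 and 3.63 in stimulated cows and 4.63, 4.69 and 4.83 in control cows. The superovulated values lay above all stimulated ones, as they did for 7.12% of all genes, and superovulated 3 was the highest array rather than the lowest. Its fold change was 1.16 ± 0.22 for superovulated against stimulated cows (SE; limma adjusted p = 0.302). LIG1, the ligase that seals Okazaki fragments, had a fold change of -0.55 ± 0.23 for stimulated against control cows (SE; limma adjusted p = 0.779), and POLD2, a subunit of DNA polymerase delta, one of -0.38 ± 0.14 for superovulated against control cows (SE; limma adjusted p = 0.798).

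Of 45 other regulators 27 were measured and 0 passed, with medians between -0.05 and 0.06 in the 3 comparisons. The array order held for 5, or 18.5%, against 2.47% of all genes. CCNC, E2F5 and RB1 are likewise named for the smallest p of their list in any comparison, so their differences were selected on these data. CCNC, cyclin C, a part of the Mediator kinase module, had signals of 9.66, 9.50 and 9.49 in superovulated cows, 9.13, 9.12 and 9.13 in stimulated cows and 9.23, 9.05 and 9.11 in control cows. All superovulated values lay above all others, with a fold change of 0.42 ± 0.07 against both stimulated and control cows (SE; limma adjusted p = 0.274 and 0.559). The background shares of genes higher with no overlap were 7.12% against stimulated and 5.51% against control cows. E2F5, an E2F that acts mainly as a repressor, had signals of 6.19, 6.84 and 6.49 in superovulated cows, 7.22, 7.31 and 7.36 in stimulated cows and 6.97, 6.86 and 6.84 in control cows, and its fold change for superovulated against stimulated cows was -0.79 ± 0.15 (SE; limma adjusted p = 0.302). RB1, the retinoblastoma protein that binds E2Fs, had a fold change of -0.32 ± 0.10 for superovulated against control cows (SE; limma adjusted p = 0.780).

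Markers of other cells and of RNA quality varied over the same arrays. The 10 measured endothelial markers of 11 listed averaged between 7.27 and 7.68 in superovulated, 7.53 and 7.98 in stimulated and 7.09 and 7.99 in control cows, with control 2 the highest array, stimulated 2 next and control 3 the lowest. Control 2 was high for endothelial as well as for mitosis genes. Superovulated 2, also high for mitosis genes, had an endothelial average of 7.61, below the 7.68 of superovulated 1. Superovulated 3, the lowest array for most mitosis genes, had 7.27, above control 1 at 7.21. On stimulated 2, where mitosis genes lay below their means, macrophage and myeloid markers were also the highest of all arrays. The 8 pericyte and smooth muscle markers had their highest averages in superovulated 2, at 9.08, and in control 2, at 8.94. Superovulated 1, at 8.91, and stimulated 2, at 8.84, were close to control 2. Superovulated 3 had 8.34, above control 1 at 8.29, stimulated 3 at 8.12 and stimulated 1 at 8.01, so this list did not share the array order of the mitosis genes. Averages of the 7 surface epithelium and oviduct markers were 4.09 in superovulated 2 and between 3.11 and 3.35 on the other 8 arrays. The higher average came mainly from KRT18, at 8.79, and KRT19, at 5.03, while EPCAM, CDH1, MUC1 and OVGP1 were not highest in superovulated 2. KRT8, dim with a mean of 1.96, was also highest there, at 2.12. The 10 measured of 12 macrophage and myeloid markers averaged between 6.60 and 7.72 in superovulated, 6.84 and 8.07 in stimulated and 5.16 and 6.37 in control cows, and the 4 measured of 6 neutrophil markers between 7.37 and 8.51, 5.35 and 6.17, and 7.06 and 8.41 in the same order of groups. The 6 fibroblast markers had their highest average in superovulated 2 as well, and between 10.47 and 11.37 on the other 8 arrays. T and NK, B and plasma, granulosa and erythroid lists had averages between 2.77 and 5.81 on all arrays. The T and NK average was 4.15 in stimulated 1 and 3.68 in stimulated 3, and between 2.86 and 3.31 on the other arrays. Means of single genes in these lists reached 11.91, for INHA. The 3′ minus 5′ difference of the actin control, a sign of RNA quality, was -0.21, -0.64 and -0.35 in superovulated, -0.34, -0.46 and -0.28 in stimulated and -0.22, -0.53 and -0.25 in control cows, lowest in superovulated 2 and control 2. That control was dim, and the brighter GAPDH control lay between -0.08 and 0.02 on all arrays. The EF1A control, also bright, lay between -1.90 and -1.60 and was lowest in control 3, so the array order of the actin control was not shared. The part of cell makeup and RNA quality in the differences between arrays was not tested.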

How the data were processed

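Per the labels' protocols, total RNA of corpora lutea was labelled as biotinylated cRNA for Affymetrix bovine arrays. The authors deposited 1 table of 24128 probe sets, 112 of them array controls, on 9 arrays. As deposited, the values are digit runs of another unit than any standard one, since each lacks its decimal mark, and with the mark restored they were read as log2 signals. A digit run that starts with 1 can have 2 readings, which concerned 15.5% of values. Of the probe sets, 19509 had no open run, 1583 were settled by their other arrays, while for those with 9 open runs the spread between arrays decided at a posterior of 0.95, 2933 as bright and 35 as dim, with 1.99 wrong readings expected. A further 68 stayed undecided and were left out, and 23949 were tested. Recovered values run from 0.852 to 15.4. Which log base, summarisation and normalisation were used is not given in the sources used here, and the values were not normalised again. There is no depth to state for an array, so precision is limited by how many arrays there are.

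Symbols came from the platform's probe table, and names alone were used, since no genome or sequence was used here. Each probe set was fitted with limma 3.58.1 in R 4.3.3 (lmFit and eBayes, 1 mean per group over all 9 arrays, 6 residual degrees of freedom, 2-sided tests, Benjamini-Hochberg adjustment over all tested probe sets), with tables in Python 3.11.15 and pandas 2.3.3, after the steps were tested on simulated data. Background shares are over the 9123 genes with 1 symbol. Members, lists and the naming rule were chosen with earlier results of these data known. That rule gives values on every array for set leading genes and, per role class, for the 3 members with the smallest p and the 2 with the widest range, and names 3 genes per other list. Alternatives were no open digit run, quantile normalisation, leaving out the dimmest 25% of probe sets, the mean of all probe sets of a gene, only the 2 groups compared, each array left out, and the replicate number as a block.

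Same-numbered arrays of superovulated and stimulated cows deviated together from their group means (r = 0.203, 0.375 and 0.152 for numbers 1 to 3), as did number 2 of superovulated and control cows (r = 0.349), but not all pairs with control cows did (0.084 for number 1 of superovulated and control cows, -0.029 for number 3 of stimulated and control cows). Arrays of different numbers also exceeded 0.1, at 0.25 for control 1 with superovulated 3 and 0.165 for control 1 with stimulated 3. By the rule that every same-numbered pair's r exceeds 0.1, the superovulated and stimulated samples passed. That rule cannot tell a pairing of samples from other shared variation, and the labels give no source for a pairing.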

Additional observations from a re-analysis of the deposited data

How the results depend on the processing

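No member passed the adjusted threshold in any comparison under any setting run, so none of the 0 counts turned on a choice. Medians over the members kept their sign under the decimal mark, normalisation, dim filter and probe set choices, and with only the 2 groups compared in the fit. Leaving out single arrays changed the sign in both comparisons with superovulated cows. With each array left out in turn the median ran from -0.15 to 0.61 for superovulated against stimulated, from -0.60 to 0.24 for superovulated against control and from -0.66 to -0.13 for stimulated against control cows. Probe sets called over the whole array with arrays left out in turn ran from 1 to 3, 0 to 1 and 0 to 4 in these comparisons, and from 1 to 2 for any difference among groups, against 1, 0, 1 and 1 with all arrays. The extremes were 3 without superovulated 1, 1 without stimulated 3, and 4 without superovulated 3 with 0 without stimulated 3, and any difference gave 2 without superovulated 3 or stimulated 3. Only the 2 groups compared gave 1 for superovulated against control cows, and both the probe sets with no open digit run and quantile normalisation gave 2 for superovulated against stimulated cows. Without the 3 arrays named in the report, an added setting, stimulated against control gave 2. With the replicate block, stimulated against control gave 3 probe sets in place of 1, and no other count of adjusted calls changed. Without adjustment the block gave 1, 2 and 3 members for superovulated against stimulated, superovulated against control and stimulated against control cows, in place of 0, 1 and 1. The causes were not tested. For single members 937 of 939 alternatives stayed within the spread between arrays. The exceptions were fold changes of 0.31 for PCNA and 0.79 for CDK2 in superovulated against control cows without those 3 arrays. With 3 arrays a group and member spreads this wide, differences of the size seen could not be told from the spread, and for a dim probe set such as that of CENPA the signal limits what can be measured.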
